A study of Macaca mulatta with 6 samples.

Results

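Hyaluronan genes were followed in rhesus monkey testis cultures that the study describes as spermatogonial stem cells (SSCs), the cells from which sperm descend, grown with or without platelet-derived growth factor (PDGF). The 10 genes comprised the hyaluronan synthases HAS1, HAS2 and HAS3, the proteoglycans VCAN and ACAN, the link proteins HAPLN1 and HAPLN3, the receptor CD44, the hyaluronan-modifying protein TNFAIP6 and the depolymerizing protein CEMIP. They were chosen by name, as genes of hyaluronan synthesis, binding and turnover, with earlier results of these data known. Of the 17795 genes in the deposited count table, 9 carried these names; HAPLN1 was not analysed here. Of the 9, 8 passed the count filter and were tested, among 11539 genes tested in all, and ACAN did not pass.

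Bulk RNA sequencing compared 3 libraries labelled PDGF with 3 labelled PDGFNO, the PDGF-free controls. The SSC culture methods describe droplets of a basement membrane gel under a serum-containing medium with PDGF, GDNF, EGF, bFGF, LIF, Wnt3a, vitamin C and melatonin. How the PDGF-free controls were kept is not given in the sources used here. The labels give the tissue as testis and state no donor, animal age or time in culture. In both groups replicate 1 was of batch 1 and replicates 2 and 3 were of batch 2. Nothing says whether replicates were separate cultures, so the p-values measure the spread between these libraries, which may be technical.

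Hyaluronan is a very long, unsulfated sugar chain that is made at the plasma membrane and pushed out into the matrix. HAS enzymes build it from UDP-glucuronic acid and UDP-N-acetylglucosamine, large chondroitin sulfate proteoglycans and link proteins bind along it, and CD44 holds it at the cell surface. In the reproductive tract it is best known from the matrix around the oocyte, where TNFAIP6 loads heavy chains onto hyaluronan, and from the sperm hyaluronidase SPAM1.

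Library totals were 13095466 to 14102695 counts with PDGF and 10593804 to 11605910 without. Replicates 2 and 3 lay closer to each other than to replicate 1 in both groups. Of 12 listed spermatogonial markers 9 were in the table and 5 were tested, with UCHL1 higher, FGFR3 and DDX4 lower, and a summed level of 377 to 437 CPM with PDGF and 351 to 463 CPM without (CPM are counts scaled to library size). DDX4 and DAZL, which define germ cells, had at most 38 and 14 counts in any library, and GFRA1, ZBTB16 and SALL4, markers of undifferentiated spermatogonia, had at most 9, 5 and 10 and were not tested. DDX4, DAZL, GFRA1, ZBTB16 and SALL4 were thus near 0 in both groups, against the SSC description, and MAGEA4 had at most 1 count. ID4, UCHL1 and FGFR3 of the same list were at 131, 263 and 13.7 CPM with PDGF and 163, 185 and 57.8 CPM without. The study reports SSEA4 staining of the cultured colonies. It also reports enhanced clone formation and sustained proliferation in its collagen-PDGF culture. From its transcriptomes it reports higher stemness scores with PDGF and expression of genes of an undifferentiated spermatogonial state. Pathways of spermatogenesis were lower there. Stroma markers were high. The 8 fibroblast-like stroma markers summed to 14120 to 19438 CPM with PDGF and 16982 to 19170 CPM without (2 of 8 lower), and the 6 peritubular myoid markers to 400.02 to 508 CPM and 1015 to 1169 CPM (3 of 6 lower). All 4 tested spermatid markers were lower, with a summed level of at most 145 CPM with PDGF and at least 558 CPM without. None of 3 tested Sertoli, 4 endothelial and 2 macrophage markers was called, and IGF1 was lower among 4 tested Leydig markers. CYP11A1, PTPRC, CD3E and CD3G had 0 counts in all libraries. Of the untested Sertoli markers, FATE1 was counted 0, 0 and 0 times with PDGF and 14, 17 and 2 times without. DHH was counted 10, 5 and 11 times with PDGF and 7, 0 and 16 times without. The marker calls used an edgeR adjusted p under 0.05, at which 7.61% of all genes tested were higher and 10.7% lower. With so few markers tested per type, the absence of a call does not show equal levels. The part of any cell type in the differences below was not tested, and in bulk libraries fewer cells of a type and less RNA per cell cannot be told apart.

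PDGF libraries held more transcript of HAS1, HAS2, VCAN and TNFAIP6 and less of HAS3 and CEMIP, while HAPLN3 and CD44 did not pass the test. HAS1 was 5.87-fold, TNFAIP6 2.55-fold, HAS2 2.51-fold and VCAN 1.94-fold higher with PDGF. CEMIP was 2.97-fold and HAS3 1.97-fold lower. Under edgeR's quasi-likelihood test with Benjamini-Hochberg adjustment over all genes (adjusted p under 0.05), 4 of the 8 tested members were thus higher and 2 were lower. Of all genes tested, 7.61% were higher and 10.7% were lower. The median log2 fold change was 0.68 over the 8 members (0.66 in batch 1 and 0.69 in batch 2) and 0.02 over all genes tested. Of the members, 5 lay higher in every PDGF library than in every PDGFNO library and 2 lay lower, where 18.2% and 19.3% of all genes tested did so. The members were chosen with earlier results of these data known, so these comparisons with all genes do not test the set.

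**Figure D1:**
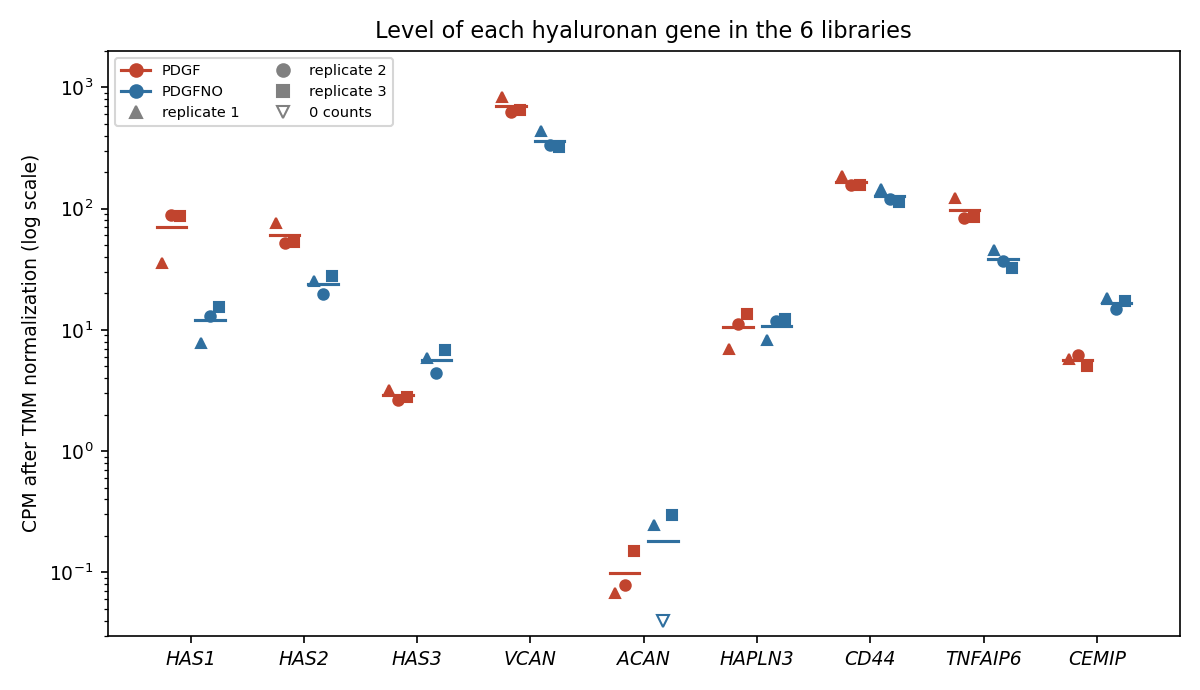
Library-scaled counts (CPM, log axis) of the 9 measured genes in each library, PDGF in red and PDGFNO in blue. Symbols mark replicates, bars mark group means, and the open triangle marks a library with 0 counts. The groups are separate for HAS1, HAS2, HAS3, VCAN, CD44, TNFAIP6 and CEMIP and overlap for HAPLN3 and ACAN.

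Upstream sequences, the 250 bases before the annotated RefSeq start, are shown for 3 called members that between them held AP-1, GC box and TATA letters. HAS2 held matches too and is not shown. TNFAIP6 and VCAN were higher and CEMIP was lower with PDGF. Sequences are from Mmul_10, read 5′ to 3′ toward the start on the gene's strand. Capitals mark matches, on either strand, to an AP-1 motif (TGANTCA), a GC box (GGGCGG) or a TATA motif (TATAAA).
TNFAIP6, chr12:38531113-38531362, plus strand: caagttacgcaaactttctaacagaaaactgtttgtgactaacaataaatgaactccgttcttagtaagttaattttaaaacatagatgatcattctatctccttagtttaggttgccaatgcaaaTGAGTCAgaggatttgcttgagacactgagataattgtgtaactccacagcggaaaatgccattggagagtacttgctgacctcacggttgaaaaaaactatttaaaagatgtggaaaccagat
VCAN, chr6:80263885-80264134, plus strand: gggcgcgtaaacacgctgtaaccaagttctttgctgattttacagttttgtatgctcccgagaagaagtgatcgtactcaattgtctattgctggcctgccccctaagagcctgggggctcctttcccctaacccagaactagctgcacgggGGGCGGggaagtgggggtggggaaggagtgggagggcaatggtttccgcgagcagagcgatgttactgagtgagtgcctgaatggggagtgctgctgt
CEMIP, chr7:58104290-58104539, plus strand: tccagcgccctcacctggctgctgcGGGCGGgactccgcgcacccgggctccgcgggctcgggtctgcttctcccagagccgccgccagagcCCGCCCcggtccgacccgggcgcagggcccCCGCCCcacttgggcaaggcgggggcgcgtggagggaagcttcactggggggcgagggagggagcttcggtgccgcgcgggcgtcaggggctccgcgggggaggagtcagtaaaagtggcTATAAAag
The AP-1 letters in TNFAIP6 lay 124 to 118 bases before the start and were found in 4.77% of 14935 protein-coding promoters of the same length. The TATA letters in CEMIP lay 8 to 3 bases before the start, and 8.26% of promoters held them. GC box letters were in 48.6% of promoters, and in HAS2, VCAN and CEMIP of the 9 members. The hypoxia core ACGTG was in 19.2% of promoters and in HAS2 and HAPLN3. The cyclic AMP response element TGACGTCA (1.65% of promoters) and the CArG box bound by serum response factor (1.01%) were in none of the 9. HAS1, HAS3, ACAN and CD44 held no match to any of these motifs. A match is a string of letters only, and genes with several starts have other promoters that were not searched.

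Among the synthases, HAS1 had the largest log2 fold change in size of the 8 tested members. Its level was 35.7, 88.3 and 87.5 CPM in PDGF replicates 1, 2 and 3 and 7.80, 13.03 and 15.3 CPM in the PDGFNO replicates. Replicate 1 was the lowest of its group on both sides, and the lowest PDGF library still lay above the highest PDGFNO library. The log2 fold change was 2.55 (standard error 0.39, 95% interval 1.65 to 3.46, edgeR adjusted p = 0.0039), with 2.19 in batch 1 and 2.63 in batch 2.
HAS2, the synthase that makes very long chains and is required for embryonic heart development, was at 76.3, 51.5 and 53.3 CPM with PDGF and at 25.1, 19.5 and 27.5 CPM without. Here replicate 1 was the highest PDGF library, the reverse of HAS1. Its log2 fold change was 1.33 (standard error 0.22, 95% interval 0.83 to 1.82, edgeR adjusted p = 0.0048), with 1.60 in batch 1 and 1.17 in batch 2.
HAS3, which makes shorter chains, was at 3.17, 2.66 and 2.78 CPM with PDGF and 5.83, 4.41 and 6.76 CPM without. All PDGF libraries lay below all PDGFNO libraries. The log2 fold change was -0.98 (standard error 0.27, 95% interval -1.59 to -0.37, edgeR adjusted p = 0.038). This call was lost without PDGF replicate 1 (edgeR adjusted p = 0.062), 2 (0.13) or 3 (0.12) and without PDGFNO replicate 1 (0.053) or 3 (0.13), and also when replicates 2 and 3 were added together (0.19).

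To compare the synthases with each other, CPM were divided by the exon length of each gene in kilobases (kb), taken from the RefSeq annotation over all isoforms. The summed HAS level was 28.9, 37.3 and 37.5 CPM per kb with PDGF and 9.28, 9.11 and 12.1 CPM per kb without, a ratio of means of 3.40. The groups did not overlap, and the two-sided exact permutation test gave p = 0.1, the smallest that 3 libraries against 3 allow (0.25 after adjustment over 5 relations). HAS3 made up 1.49 ± 0.375% (SD, n = 3) of the summed level with PDGF and 9.77 ± 1.27% (SD, n = 3) without, again without overlap (exact permutation p = 0.1, adjusted 0.25).
The balance of HAS1 and HAS2 differed between PDGF replicate 1, the only batch 1 library of that group, and PDGF replicates 2 and 3. In PDGFNO too the HAS1 share was lowest in replicate 1. HAS1 held 33.9% of the summed level in PDGF replicate 1 and 65.1% and 64.1% in replicates 2 and 3, against 23.1%, 39.3% and 34.7% in PDGFNO. HAS2 held 64.2%, 33.7% and 34.6% with PDGF and 65.9%, 52.2% and 55.4% without. The HAS2 share was thus 1.72 percentage points lower with PDGF in batch 1 and 19.7 points lower in batch 2. Neither share separated the groups (exact permutation p = 0.3 for HAS1 and for HAS2, adjusted 0.3). Between libraries of the same replicate number, the HAS1 share was higher with PDGF in 3 of 3 pairs and the HAS2 share lower in 3 of 3. A two-sided exact paired permutation test gave p = 0.25 for each, the smallest that 3 pairs allow. Within batch 2 this pairing rests on the replicate number alone.

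**Figure D2:**
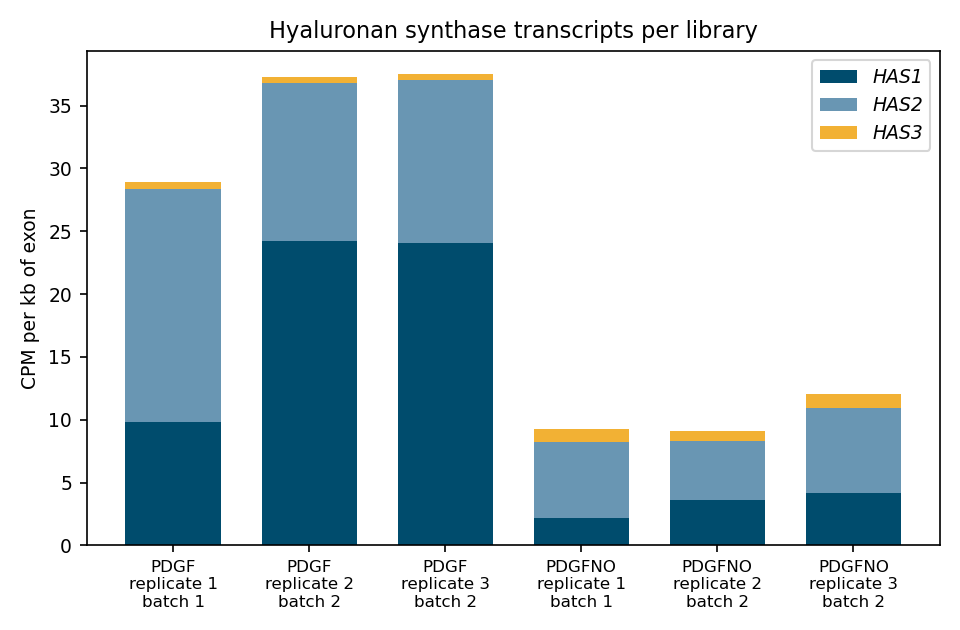
Levels of HAS1, HAS2 and HAS3 in CPM per kb of exon, stacked for each of the 6 libraries. The summed level is 28.9 to 37.5 in the PDGF libraries and 9.11 to 12.1 in the PDGFNO libraries, and HAS2 is the larger part in PDGF replicate 1 while HAS1 is in PDGF replicates 2 and 3.

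Among the binding partners, VCAN, which encodes the large proteoglycan versican, came next. It was at 831, 629 and 645 CPM with PDGF and 433, 331 and 320 CPM without. Both groups had their highest value in replicate 1 and did not overlap. Its log2 fold change was 0.96 (standard error 0.17, 95% interval 0.56 to 1.35, edgeR adjusted p = 0.0075), with 0.94 in batch 1 and 0.97 in batch 2. Adding replicates 2 and 3 together gave an edgeR adjusted p of 0.084. Per unit of summed HAS transcript, both per kb, VCAN stood at 2.28, 1.34 and 1.36 with PDGF and 3.69, 2.88 and 2.096 without, and these values overlapped (exact permutation p = 0.2, adjusted 0.3). The ratio was lower with PDGF in 3 of 3 pairs of the same replicate number (exact paired permutation p = 0.25, the smallest possible).
ACAN, which encodes the cartilage proteoglycan aggrecan, was counted 1, 1 and 2 times in the PDGF libraries and 3, 0 and 3 times in the PDGFNO libraries. The ratio of the group totals, scaled to depth, was 0.535 (exact 95% limits 0.111 and 2.26, counting error alone), too wide to show a difference.
HAPLN3, a link protein that fixes proteoglycans to hyaluronan, was at 6.89, 11.3 and 13.6 CPM with PDGF and 8.21, 11.9 and 12.2 CPM without. The groups overlapped and replicate 1 was the lowest in each. The log2 fold change was -0.03 (standard error 0.29, 95% interval -0.69 to 0.64, edgeR adjusted p = 0.96), and its sign changed with the library left out.
TNFAIP6, the secreted protein that transfers heavy chains to hyaluronan, was at 122, 84.1 and 84.7 CPM with PDGF and 45.3, 36.7 and 32.2 CPM without. The lowest PDGF library exceeded the highest PDGFNO library. For TNFAIP6 the log2 fold change was 1.35 (standard error 0.21, 95% interval 0.87 to 1.83, edgeR adjusted p = 0.0039), with 1.43 in batch 1 and 1.29 in batch 2.

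CD44, the main cell surface receptor, was at 187, 157 and 155 CPM with PDGF and 144, 120 and 114 CPM without. The groups did not overlap, but the difference was smaller than for the genes above, 0.40 in log2 fold change (standard error 0.15, 95% interval 0.05 to 0.75, edgeR adjusted p = 0.10). When the replicate number entered as a block, CD44 reached an edgeR adjusted p of 1.3e-06, beside 60.1% of all genes called in that fit, and without PDGFNO replicate 1 it was 0.049. With replicates 2 and 3 added together it was 0.42, the highest among the 17 alternatives.
CEMIP, which binds hyaluronan and is needed for its breakdown by fibroblasts, was at 5.74, 6.18 and 5.03 CPM with PDGF and 18.3, 14.8 and 17.1 CPM without. All PDGF libraries were below all PDGFNO libraries, and the batches differed little. The log2 fold change was -1.57 (standard error 0.19, 95% interval -2.01 to -1.12, edgeR adjusted p = 0.0015), with -1.67 in batch 1 and -1.51 in batch 2.

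**Figure D3:**
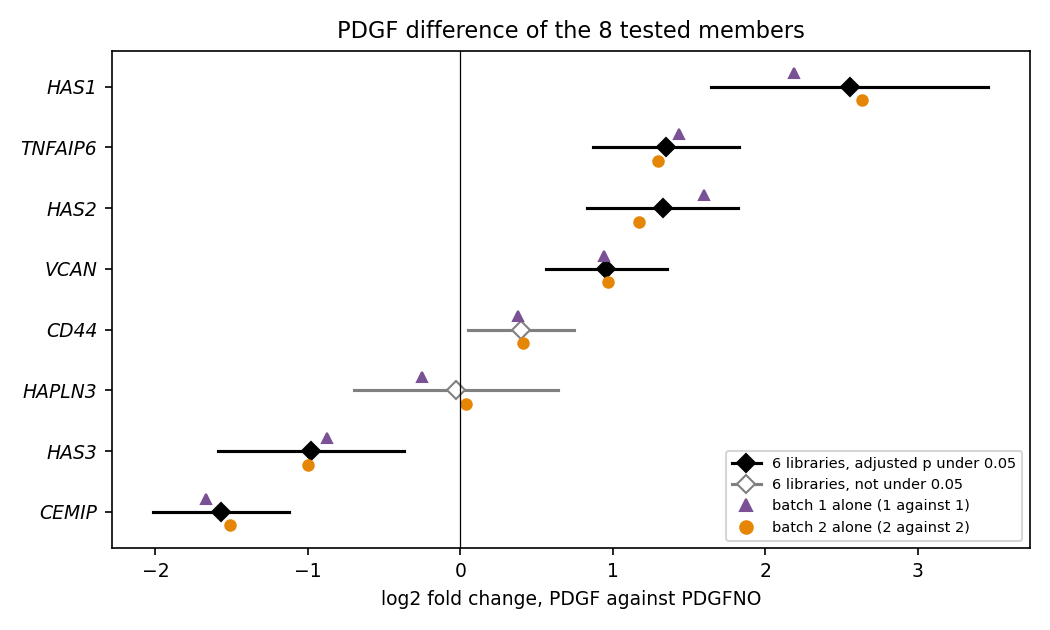
Log2 fold change of the 8 tested members, PDGF against PDGFNO, with 95% intervals from edgeR (diamonds; filled where the adjusted p was under 0.05) and the log2 difference within batch 1 (triangles) and batch 2 (circles). HAS1, TNFAIP6, HAS2 and VCAN lie to the right of 0, CEMIP and HAS3 to the left, and both batches fall on the same side for each of these 6.

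Per kb of exon, the order of the members with PDGF was TNFAIP6 (67.7 ± 15.3 CPM per kb, SD, n = 3), VCAN (55.6 ± 8.90), CD44 (29.2 ± 3.17), HAS1 (19.4 ± 8.28), HAS2 (14.7 ± 3.36), HAPLN3 (5.32 ± 1.71), CEMIP (0.685 ± 0.0700), HAS3 (0.503 ± 0.0471) and ACAN (0.0128 ± 0.00586). Of the neighbours in that order, TNFAIP6 and VCAN, and HAS1 and HAS2, had overlapping libraries. Without PDGF the order was VCAN (28.6 ± 4.92), TNFAIP6 (26.6 ± 4.62), CD44 (22.1 ± 2.80), HAS2 (5.86 ± 0.998), HAPLN3 (5.42 ± 1.12), HAS1 (3.31 ± 1.05), CEMIP (2.03 ± 0.214), HAS3 (0.994 ± 0.208) and ACAN (0.0234 ± 0.0205). There the libraries of VCAN and TNFAIP6, of TNFAIP6 and CD44, of HAS2 and HAPLN3, of HAPLN3 and HAS1, and of HAS1 and CEMIP overlapped. In mean level per kb HAS1 stood below HAPLN3 without PDGF, within overlapping libraries, and above it with PDGF, without overlap.

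Batch moved several members as well. With group in the model, batch 2 was higher than batch 1 for HAS1 (log2 difference 1.17, edgeR adjusted p = 4.9e-09) and HAPLN3 (0.71, 0.0019). It was lower for TNFAIP6 (-0.48, 6.3e-06), VCAN (-0.40, 1.0e-08), HAS2 (-0.36, 0.0073) and CD44 (-0.28, 9.7e-05). HAS3 and CEMIP did not pass this test (edgeR adjusted p = 0.71 and 0.55). Over all genes tested, 57.2% passed it. No member was called for a PDGF difference that differed between batches (interaction term in edgeR, 0 of 8 members and 0 of 11539 genes at an adjusted p under 0.05, and at an unadjusted p under 0.05, 0 members and 526 genes). Batch 1 held 1 library per group, so this test could detect little and does not show equal differences in the batches. The unadjusted p of the interaction was 0.069 for HAS1 and 0.052 for HAS2, with opposite signs (0.44 and -0.45 on the log2 scale).

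Other genes of hyaluronan binding and breakdown were read from a list of 25, of which 22 were in the table and 12 were tested. LYVE1, CEMIP2 and TLR4 were higher and SPAM1 and TLR2 were lower, against 7.61% and 10.7% of all genes tested. The other 7 were not called, and the median log2 fold change of the 12 was 0.20. With the replicate block 6 were higher and 4 lower, where 31.1% and 29% of all genes tested were. LYVE1, a hyaluronan receptor of lymphatic vessels and of some macrophages, was at 11.1, 10.01 and 11.1 CPM with PDGF and 1.97, 0.766 and 0.0980 CPM without (log2 fold change 3.44, edgeR adjusted p = 0.0052; 4.58 without PDGFNO replicate 1). Of the endothelial markers, PECAM1, KDR, CDH5, VWF and TIE1 were at 5.74, 5.55, 1.22, 1.19 and 0.125 CPM with PDGF. Without PDGF they were at 3.31, 5.02, 1.15, 1.74 and 0.170 CPM. Of the macrophage markers, CD68, CD14, CSF1R and CD163 were at 15.8, 1.12, 0.716 and 0.674 CPM with PDGF. Without it they were at 12.9, 1.52, 0.728 and 0.887 CPM, and PTPRC had 0 counts in all libraries. The part of these cells in the LYVE1 difference was not tested. CEMIP2, a membrane hyaluronidase related to CEMIP, was at 80.9, 73.4 and 73.5 CPM with PDGF and 37.9, 40.1 and 39.7 CPM without (log2 fold change 0.95, edgeR adjusted p = 0.0026). CEMIP and CEMIP2 thus changed in opposite directions. The classical hyaluronidase genes HYAL1, HYAL2 and HYAL3 had log2 fold changes of 0.23, 0.24 and 0.17 (edgeR adjusted p = 0.39, 0.58 and 0.78), and for HMMR, an intracellular hyaluronan-binding protein of dividing cells, it was 0.44 (0.37).
SPAM1, the sperm surface hyaluronidase, was counted 1, 3 and 5 times in the PDGF libraries and 21, 9 and 14 times in the others (log2 fold change -2.53, edgeR adjusted p = 0.025). It lost its call without PDGF replicate 1 (0.065) or 2 (0.083) or PDGFNO replicate 3 (0.076) and when replicates 2 and 3 were added together (0.088). The spermatid markers, given above, were lower with PDGF too, and their part in the SPAM1 difference was not tested. TLR4 and TLR2, innate immune receptors that also respond to hyaluronan fragments, had log2 fold changes of 0.92 and -1.37 (edgeR adjusted p = 0.010 and 0.029). TLR4 missed the threshold without PDGFNO replicate 2 (0.051) or 3 (0.050), and TLR2 missed it in 5 of the 6 fits that leave out a library (up to 0.12), being called only without PDGFNO replicate 1 (0.043).

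For the sugar precursors of hyaluronan 10 genes were listed, and all were tested. The list includes UXS1, which consumes UDP-glucuronic acid to make UDP-xylose (log2 fold change 0.18). All 10 had a positive log2 fold change (median 0.44, or 0.39 within batch 1 and 0.46 within batch 2), where 51.4% of all genes tested were positive. The smallest were NAGK at 0.0037 (edgeR adjusted p = 0.99), below 0 within batch 2 (-0.0080), and UGP2 at 0.086 (0.78). Of the 10, 2 were called higher and none lower, against 7.61% and 10.7% of all genes, and with the replicate block 7 were higher, against 31.1%. GFPT2, which makes glucosamine-6-phosphate at the entry of the hexosamine pathway, was at 94.98, 108.5 and 107.7 CPM with PDGF and 40.9, 61.3 and 48.9 CPM without (log2 fold change 1.04, edgeR adjusted p = 0.0058). GNPNAT1, which acetylates that product, followed at 0.90 in log2 fold change (edgeR adjusted p = 0.027) but lost its call without PDGF replicate 2 (0.070) or 3 (0.071) or PDGFNO replicate 2 (0.098) or 3 (0.10). The log2 fold changes of UGDH, which makes UDP-glucuronic acid, and of UAP1, which makes UDP-N-acetylglucosamine, were 0.46 and 0.54 (edgeR adjusted p = 0.0996 and 0.091).
For the chondroitin sulfate chains that versican carries, 22 genes were listed, 20 were in the table and 19 were tested. FAM20B, CSGALNACT2, CHSY1 and CHST11 were higher and none was lower, with a median log2 fold change of 0.11, against 7.61% and 10.7% of all genes called. With the replicate block 7 were higher and 3 lower, and 60.1% of all genes were called in that fit. The log2 fold changes of CHST11, a chondroitin 4-sulfotransferase, of CSGALNACT2, which starts the chain, and of CHSY1, which extends it, were 1.43, 1.00 and 0.92 (edgeR adjusted p = 0.0062, 0.0081 and 0.0093).
Of 7 listed ADAMTS proteases that cut versican or aggrecan, 6 were in the table and 4 were tested. Of these 4, 2 were higher and 1 was lower, against 7.61% and 10.7% of all genes tested. ADAMTS9 was at 17.6, 20.6 and 19.5 CPM with PDGF and 7.06, 6.80 and 6.47 CPM without (log2 fold change 1.503, edgeR adjusted p = 0.0011). ADAMTS1 was at 386, 310 and 325 CPM against 199, 142 and 142 CPM (log2 fold change 1.08, edgeR adjusted p = 0.0049). ADAMTS5 was lower (log2 fold change -1.22, edgeR adjusted p = 0.013), a call lost without PDGF replicate 2 (0.051) or PDGFNO replicate 3 (0.054).
Of the 4 proteins that tie CD44 to the cell cortex or compete there (EZR, MSN, RDX and NF2), MSN was higher by 0.53 in log2 fold change (edgeR adjusted p = 0.013). This call was lost without PDGF replicate 2 (0.052) or 3 (0.053) and without PDGFNO replicate 2 (0.063) or 3 (0.059). With the replicate block 2 of the 4 were higher and 1 was lower, where 31.1% and 29% of all genes tested were.

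**Figure D4:**
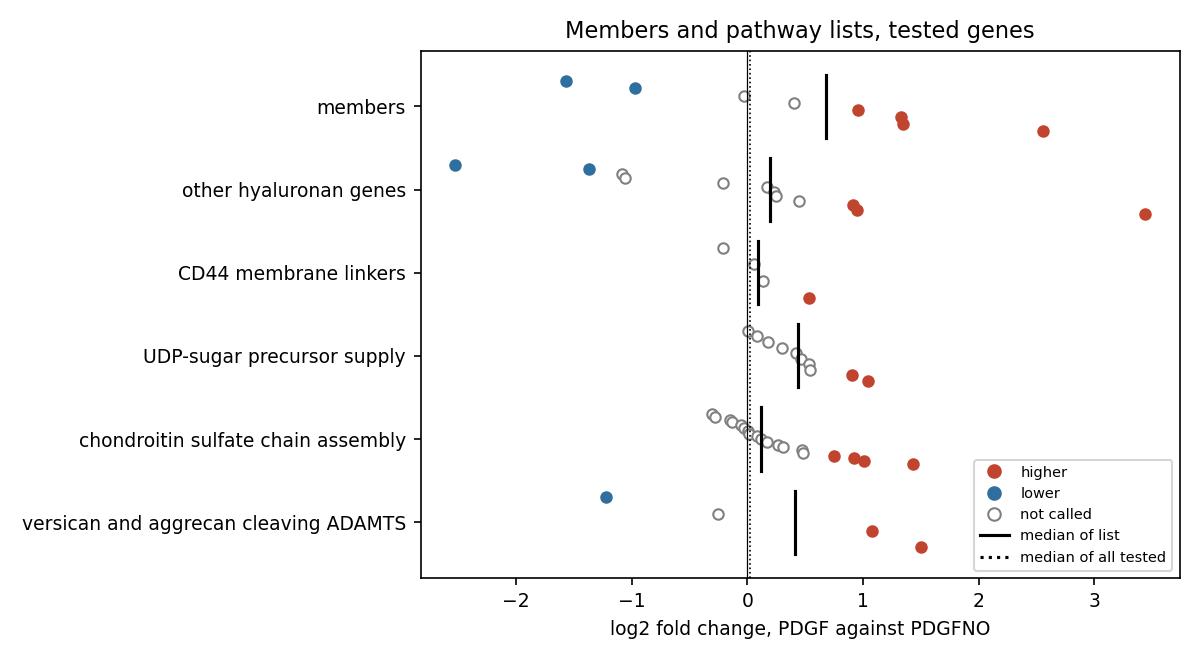
Log2 fold change, PDGF against PDGFNO, of each tested gene among the members and 5 pathway lists, with called genes filled (red higher, blue lower), list medians as bars and the median of all tested genes as a dotted line. The precursor list has a median of 0.44 and no gene to the left of 0, with NAGK almost at 0 (0.0037).

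By distance between centred log2 CPM profiles over the 6 libraries, among 10584 genes, the profiles nearest to CEMIP were those of NPTX1 (distance 0.20), PTGER4 (0.22) and C3AR1 (0.34). Nearest to TNFAIP6 were KYNU (0.16), AKAP11 (0.17) and RAI14 (0.17). Nearest to HAS1 were SLC16A3 (0.39), VGF (0.64) and ARHGAP22 (0.71). This distance grows with the size of the change, which was largest for HAS1, so it cannot be compared between members. Over the 6 libraries the correlation was 0.997 for SLC16A3 with HAS1, 0.996 for KYNU with TNFAIP6 and 0.995 for NPTX1 with CEMIP. These genes were picked as nearest among 10584 over the same 6 libraries, so high correlations follow from that choice.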

How the data were processed

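The authors deposited expected counts per gene for the 6 libraries, without normalization; 34 values of 13 genes were not whole, and all values were rounded. The submitters' processing notes name fastp, HISAT2 2.1.0, SAMtools, featureCounts 2.0.1 and the builds Mmul_10 and Mmul_8.0.1, without roles; strandedness and the handling of multimapping reads are not given in the sources used here. Of the 2686 LOC identifiers in the table, 2682 occur in RefSeq annotation release 103 of Mmul_10, which supplied exon lengths and upstream sequences. Genes passing filterByExpr were TMM-normalized and compared, PDGF against PDGFNO, with edgeR 4.0.16 (quasi-likelihood test, Benjamini-Hochberg, threshold 0.05) in R 4.3.3, over all genes and without a block, since no test is stated for these bulk counts in the sources used here. The standard error is the absolute log2 fold change over the square root of F. Differences within a batch used 0.5 added counts. Intervals of summed counts are exact (Clopper-Pearson) and cover counting error only. Same-numbered libraries share a batch by the labels, and their deviations from group means correlated at r = 0.67, 0.29 and 0.31. A shared batch alone can give such values, and libraries of different number were not correlated. The values therefore do not show that replicates 2 and 3 were paired across groups. Treating the replicate number as a pairing, and as a block in an alternative fit, was an assumption. Replicates 2 and 3 differed by more than sampling noise (chi-square per degree of freedom 3.36 and 3.64). Alternatives included DESeq2 1.42.0 and limma 3.58.1 (voom). A paired exact test of the HAS shares was added after seeing the data. The edgeR test was tried on simulated data. Figures used matplotlib 3.10.9.

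The members, lists and tests were chosen with earlier results of these data known. Named genes are the 10 members, up to 3 called genes per direction and pathway list with the largest log2 fold change, and the 3 profiles nearest to each of the 3 members with the smallest adjusted p, at an average log2 CPM of at least 1. FAM20B, HYAL1 to HYAL4, HMMR, STAB1, LAYN, HAPLN4, UGDH, UAP1, UXS1, NAGK, UGP2 and the marker genes were named after their values were seen.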

Additional observations from a re-analysis of the deposited data

How the results depend on the processing

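HAS1, HAS2, TNFAIP6 and CEMIP were called in the same direction in all 17 alternative fits run for them. The count of lower members fell from 2 to 1 with replicates 2 and 3 added together, at a threshold of 0.01, and to between 1 and 2 with a library left out, each time through HAS3. The log2 fold change of HAPLN3 turned positive with no count filter (0.0036), in batch 2 alone (0.026) and without PDGF replicate 1 (0.22) or PDGFNO replicate 2 (0.055) or 3 (0.080), with a range from -0.24 to 0.22 over the libraries left out.

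Over all genes, 878 higher and 1230 lower became 3587 and 3347 with the replicate block, 3604 and 3387 with batch as a term, 3041 and 3085 in batch 2 alone, 206 and 487 with replicates 2 and 3 added together, 358 and 544 at a threshold of 0.01, and 435 to 1284 and 726 to 1726 with a library left out. With the replicate block, and equally with batch as a term, 6 other hyaluronan genes were higher and 4 lower, 2 CD44 linkers higher and 1 lower, 7 precursor genes higher, and 7 chondroitin sulfate genes higher and 3 lower. In batch 2 alone 7 precursor genes were higher, 7 chondroitin sulfate genes higher and 2 lower, and 1 linker lower. With replicates 2 and 3 added together, 1 other hyaluronan gene was higher and 0 lower, 0 linkers, 0 precursor genes and 0 chondroitin sulfate genes were higher, and 1 ADAMTS gene was higher and 0 lower. At 0.01, 0 other hyaluronan genes and 0 ADAMTS genes were lower, and 0 linkers and 1 precursor gene were higher. With at least 10 counts in every library, 1 other hyaluronan gene was lower. Leaving out a library gave 0 to 3 lower other hyaluronan genes (3 without PDGFNO replicate 1), 0 to 1 higher linkers, 1 to 5 higher precursor genes (5 without PDGFNO replicate 1) and 0 to 1 lower ADAMTS genes. The cause was not tested. The interaction of group and batch was run only under other scalings and count filters (0 members each time), and not under the remaining alternatives. ACAN is limited by depth.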

Other observations

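Several hyaluronan genes were at or near the detection limit and were not tested. HAPLN4, a link protein known from brain, was counted 40 times with PDGF and 19 times without; scaled to depth the ratio was 1.69 (exact 95% limits 0.956 and 3.09, counting error alone). HYAL4 had 0 counts in all 6 libraries. The scavenger receptor STAB1 was tested and lay at 3.12 CPM with PDGF and 6.60 CPM without (log2 fold change -1.08, edgeR adjusted p = 0.055), while LAYN, a membrane hyaluronan receptor, was at 204 and 236 CPM (log2 fold change -0.21, edgeR adjusted p = 0.24).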
